A study of Mus musculus with 6 samples.

Results

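Il21, its receptor and signalling chains, and markers of T cells were examined in mammary epithelial cells (MECs) of IL-21isoTg mice, which carry a transgene for a membrane-bound isoform of interleukin-21 (IL-21) expressed in T cells. The 10 genes were chosen by name from the 55487 genes of the count table: the ligand gene Il21 and its antisense neighbour Gm12534, the receptor genes Il21r and Il2rg, the kinase genes Jak1 and Jak3, and the T-cell genes Cd3e, Cd3d, Trac and Cd4. All 10 passed the filter on low counts, which left 17165 genes for the test. The libraries, 1 per mouse, came from 3 wild-type (WT) and 3 IL-21isoTg animals. All were virgin BALB/c females, 10 weeks old. MECs were the cells that remained after digestion of the mammary gland and magnetic removal of leukocytes by CD45, of endothelium by CD31 and of fibroblasts by CD140a. The promoter that drives the transgene is not given in the sources used here, and estrous stages were randomised according to the study's methods.

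IL-21 is a cytokine made mainly by activated CD4+ T cells. It binds a receptor built from IL-21R, encoded by Il21r, and the common gamma chain, encoded by Il2rg, which also serves the receptors for IL-2, IL-4, IL-7, IL-9 and IL-15. JAK1 and JAK3 are the kinases attached to this receptor, and they pass the signal mainly to STAT3. Il21r, Il2rg and Jak3 are known chiefly from lymphocytes and other blood cells, whereas Jak1 is used by cytokine receptors of most cell types, epithelium included. The T-cell genes encode parts of the T-cell receptor complex (Cd3e, Cd3d and the alpha-chain constant region Trac) and the co-receptor of helper T cells (Cd4).

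Il21 (ENSMUSG00000027718) lies on the minus strand of chromosome 3 of GRCm38 (mm10), from 37222759 to 37232636, and has 3 annotated transcripts. Il21-201, with 5 exons and 146 codons, and Il21-202, with 4 exons and 162 codons, share exons 2 and 3, the first 78 bases of exon 4 and, apart from where exon 1 starts, exon 1. Il21-201 then splices to exon 5, whereas Il21-202 reads on through the intron into the first bases of that exon. The predicted C-terminal ends thus differ. The third transcript is a single retained-intron exon of 2335 bp. The ends of both coding sequences are shown because the count table has 1 value for the whole gene and does not distinguish these transcripts. The labels do not say which of them the transgene encodes, and its construct was not analysed here. A reverse primer that the study's methods list for the isoform matches, apart from its 5′ base, the reverse complement of letters within the unshared end of Il21-202. Each sequence runs from the start of exon 4 to the stop codon on the minus strand. Capitals mark the bases that the 2 coding sequences do not share. The first spans the splice between chr3:37225337-37225360 and chr3:37225449-37225526, and the second is the unspliced stretch chr3:37225377-37225526.
Il21-201: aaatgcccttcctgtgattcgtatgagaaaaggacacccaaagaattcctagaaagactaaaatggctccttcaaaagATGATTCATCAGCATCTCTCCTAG
Il21-202: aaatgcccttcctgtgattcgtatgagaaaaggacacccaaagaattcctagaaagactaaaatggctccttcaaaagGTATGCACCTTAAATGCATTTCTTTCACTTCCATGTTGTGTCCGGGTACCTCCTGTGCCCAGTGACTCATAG

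Gm12534 (ENSMUSG00000086517) is a non-coding gene on the opposite strand, from 37231333 to 37232469, and all 469 bp of its exons lie opposite exons of Il21. Its exon 1 (434 bp) faces the retained-intron transcript. Its exon 2 (35 bp, chr3:37232435-37232469) faces coding sequence in exon 1 of Il21. The 2 strands are shown because reads over these bases overlap both genes unless strand is used.
Gm12534-201: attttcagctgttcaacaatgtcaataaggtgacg
Il21-201: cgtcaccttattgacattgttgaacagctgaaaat

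**Figure D1:**
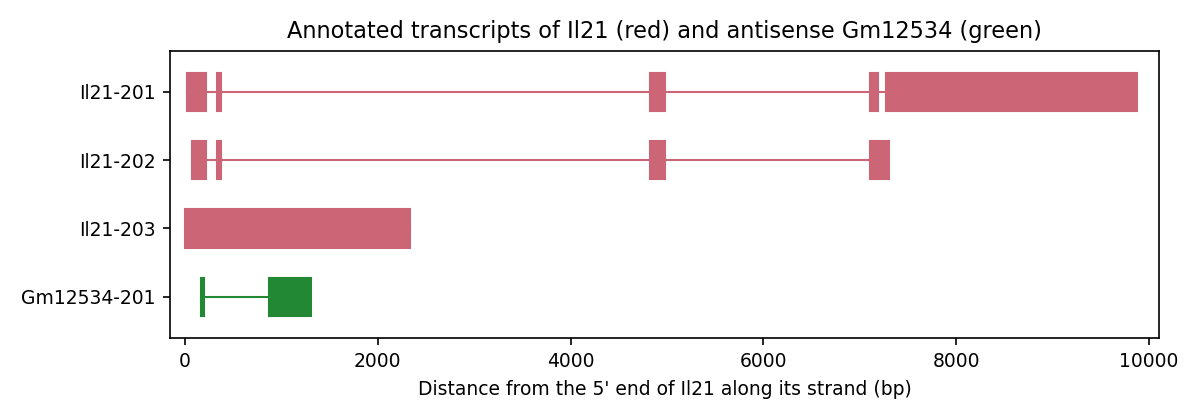
Annotated exons (boxes) and introns (lines) of the Il21 and Gm12534 transcripts, by distance in bp from the 5′ end of Il21 along its strand. Il21-202 reads through the intron between exons 4 and 5 of Il21-201 and ends just inside that exon 5. Both Gm12534 exons lie within the span of the retained-intron transcript.

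The total count on genes ranged from 15902886 to 25719244 per mouse. Levels are given in CPM, the count scaled to the TMM-normalised library size. A floor of 3 counts was used for genes read 0 times, equal to 0.112 to 0.280 CPM, and it covers counting error only. Epithelial identity was clear in all 6 libraries, in which 12 of 12 mammary epithelial markers passed the filter, with a summed level of 7568 to 10918 CPM. Another tissue was also present. A list of 16 salivary gland genes held 6.34% to 21.7% of the counts in the WT mice and 4.71% to 38.4% in the IL-21isoTg mice, with the highest share in IL-21isoTg mouse 3, and all 13 of its genes that were tested had a positive log2 fold change. Of the genes behind the depletion, Ptprc (CD45) had 45 to 209 counts per mouse and a log2 fold change of 0.038 (standard error 0.54). Pecam1 (CD31) had 377 to 2073 counts per mouse and a log2 fold change of 1.11 (standard error 0.40). Pdgfra (CD140a) had 350 to 1453 counts and 0.57 (standard error 0.37). The part of salivary gland, endothelial or fibroblast RNA in the results was not tested.

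The gene of the transgene was read in every IL-21isoTg mouse and in 1 of the 3 WT mice. Il21 had 795, 216 and 131 counts in IL-21isoTg mice 1, 2 and 3, or 33.1, 8.04 and 12.2 CPM. In WT mice 1 and 2 it had 0 counts, which allows up to 0.135 and 0.144 CPM, and in WT mouse 3 it had 37 counts, or 1.66 CPM. The source of the counts in WT mouse 3 was not tested. The groups did not overlap, but they were not uniform. The IL-21isoTg mice differed among themselves by 4.11-fold, and WT mouse 3 stood above the limit that a count of 0 sets for the other WT mice. Even the lowest IL-21isoTg mouse was 4.83-fold above WT mouse 3.

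Il21 averaged 0.555 ± 0.961 CPM (SD, n = 3 mice) in the WT group. In the transgenic group the mean was 17.8 ± 13.4 CPM (SD, n = 3). The log2 fold change was 4.98 (standard error 1.27), with an unadjusted p of 0.00449 and an adjusted p of 0.757 in the quasi-likelihood test of edgeR, adjusted by Benjamini and Hochberg's method over all genes tested. The difference thus did not pass the threshold of 0.05 on the adjusted p. WT mouse 3 set the size of the fold change. Without it the remaining WT mice were both at 0, and the IL-21isoTg mean was at least 123-fold higher than the floor of 3 counts per library.

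The counts of Gm12534 followed those of Il21. It had 312, 110 and 62 counts in the IL-21isoTg mice and 0, 0 and 15 in the WT mice, and edgeR put its log2 fold change at 5.03, with a standard error of 1.15 and an adjusted p of 0.670. Gm12534 counts came to 39.2%, 50.9% and 47.3% of Il21 counts in the IL-21isoTg mice and 40.5% in WT mouse 3. As a share of the summed counts of both genes this was 28.2% in IL-21isoTg mouse 1, with an exact binomial 95% interval of 25.5% to 30.9%, and the intervals of the other mice, from 17.1% to 43.1% in all, overlapped it.

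Whether the counts separate the strands was examined on other genes that lie wholly inside the exons of 1 other gene. The libraries were made with a directional kit, but the sources used here do not give the strand setting used when counting. On the same strand, 27 of 27 such genes had 0 counts in all 6 mice. No reads on bases shared in these same-strand pairs were thus counted for the inner gene. Of 98 non-coding genes inside exons of a protein-coding gene on the opposite strand, Gm12534 among them, 95 had counts. Their counts per base had a median of 114% of the host gene's (quartiles 32.4% and 189.5%). An example, chosen after its values were seen, is Gm11175, opposite the transcription factor gene Jund, with 198292 counts summed over all mice beside 270425 for Jund. For Gm12534 the value was 475% of Il21. Bases shared with a gene on the opposite strand were thus counted for the inner gene, unlike those shared on the same strand, so the counting used strand. At the median, counts on opposite strands were of similar density in these annotated pairs, whereas Gm12534 lay above the upper quartile. Whether the Gm12534 counts came from its own transcription or from that of Il21 was not tested.

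**Figure D2:**
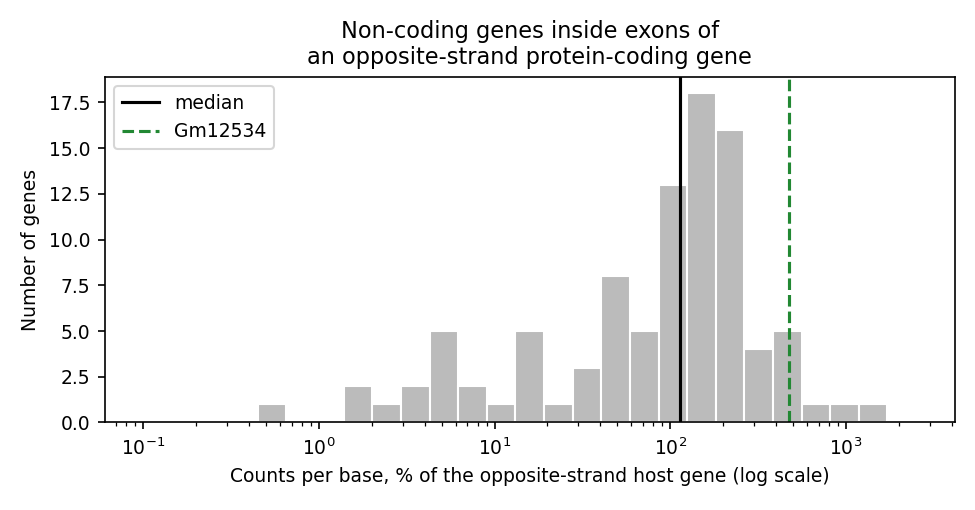
Histogram of counts per base in 98 non-coding genes that lie wholly inside exons of an opposite-strand protein-coding gene, as a percentage of the host gene's counts per base (log scale, counts summed over the 6 mice). The solid line is the median of 114% and the dashed line is Gm12534 at 475%, and 3 genes with 0 counts are not drawn.

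Il21r (ENSMUSG00000030745), the receptor chain specific to IL-21, lies on chromosome 7 from 125603429 to 125633570. It was read at a low level in every mouse, with 25, 11 and 41 counts in the WT mice and 17, 55 and 25 in their IL-21isoTg counterparts. Scaled to CPM these were 1.13, 0.529 and 1.84 against 0.707, 2.05 and 2.33. The groups overlapped widely, and the lowest IL-21isoTg value was that of mouse 1, the mouse with the most Il21. The log2 fold change was 0.52 with a standard error of 0.63 (adjusted p = 0.892 in edgeR's test), so the difference was smaller than the spread between mice. In bulk RNA, fewer cells that carry a transcript and less of it per cell cannot be told apart.

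Il2rg (ENSMUSG00000031304), the shared chain, lies on the X chromosome from 101264378 to 101268255. Its counts were 55, 31 and 37 in the WT mice and 178, 100 and 31 in IL-21isoTg mice, or 2.48, 1.49 and 1.66 CPM against 7.40, 3.72 and 2.89 CPM. All 3 IL-21isoTg mice lay above all 3 WT mice, by a narrow margin for IL-21isoTg mouse 3. This depended on TMM scaling. IL-21isoTg mouse 3 had 31 counts in a total of 15902886 and WT mouse 1 had 55 in 22291180, so by plain library total the groups overlap. The log2 fold change was 1.32 with a standard error of 0.45 (unadjusted p = 0.0186, adjusted p = 0.809 in edgeR's test), and it was 0.82 without IL-21isoTg mouse 1, where the unadjusted p of edgeR's test was 0.104. The Il2rg exons share 728 of their 2387 bp with Gm20489, a gene on the same strand with 0 counts in every mouse. Whether reads in this stretch were counted for Il2rg was not tested.

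The kinases differed little between the genotypes. Jak1 (ENSMUSG00000028530, chromosome 4) had 181, 163 and 175 CPM in the WT mice and 170, 195 and 239 CPM in the IL-21isoTg mice. The groups overlapped, and the log2 fold change was 0.22 with a standard error of 0.17 (adjusted p = 0.842 in edgeR's test). Jak3 (ENSMUSG00000031805, chromosome 8) had 24.8, 28.6 and 38.3 CPM in the WT mice and 34.8, 36.6 and 28.8 CPM in the IL-21isoTg mice. Here the highest value was that of WT mouse 3, and the log2 fold change was 0.13 with a standard error of 0.21 (adjusted p = 0.924). Jak3 shares 404 bp of exon on the same strand with Insl3, which had 2 to 10 counts per mouse. Whether reads there were counted for Jak3 was not tested.

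Counts of the T-cell markers were low throughout, and the 4 genes did not share 1 pattern. Cd3e (ENSMUSG00000032093, chromosome 9) had 36, 29 and 49 counts in the WT mice and 104, 48 and 46 in IL-21isoTg mice, or 1.62, 1.39 and 2.20 CPM against 4.32, 1.79 and 4.29 CPM. IL-21isoTg mouse 2 fell among the WT mice, and the log2 fold change was 0.98 with a standard error of 0.45 (unadjusted p = 0.0612, adjusted p = 0.809 in edgeR's test). Part of the Cd3e exons, 135 of 4080 bp, lies opposite the antisense gene Gm48719, which had 3 to 31 counts per mouse. Cd3d (ENSMUSG00000032094), next to Cd3e on chromosome 9, had 7, 3 and 14 counts in the WT mice and 15, 22 and 9 in IL-21isoTg mice, and its log2 fold change was 1.04 with a standard error of 0.66 (adjusted p = 0.817). On the CPM scale its groups overlapped only between WT mouse 3 and IL-21isoTg mouse 1, with 0.630 and 0.624 CPM.

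Trac (ENSMUSG00000076928, chromosome 14) and Cd4 (ENSMUSG00000023274, chromosome 6) did not share the direction of Cd3e clearly. Trac had 12, 9 and 26 counts in the WT mice and 14, 24 and 0 in IL-21isoTg mice. The 0 was that of IL-21isoTg mouse 3, the shallowest library, in which 3 counts correspond to 0.280 CPM. Its log2 fold change was -0.43 with a standard error of 0.91 (adjusted p = 0.943 in edgeR's test), and it turned to 0.10 without WT mouse 3 and to 0.051 without IL-21isoTg mouse 3. Cd4 had 51, 43 and 32 counts in the WT mice and 30, 67 and 30 in IL-21isoTg mice, and its log2 fold change was 0.16 with a standard error of 0.44 (adjusted p = 0.958). It turned to -0.013 without WT mouse 3 and to -0.045 without IL-21isoTg mouse 3, so neither gene had a direction that held in every set of mice.

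**Figure D3:**
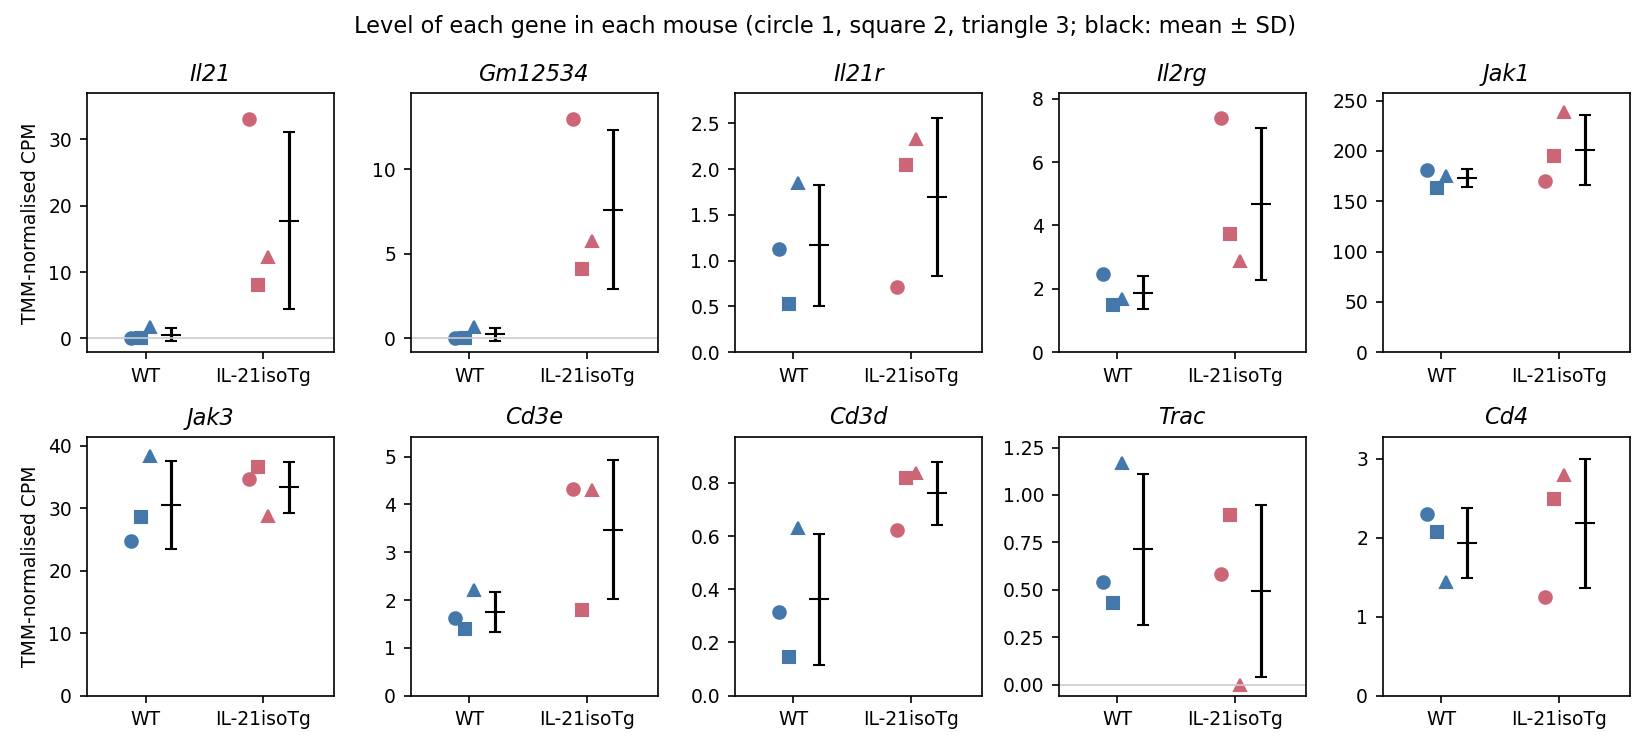
TMM-normalised CPM of each of the 10 genes in each mouse (vertical axes, scaled per gene), with WT mice in blue and IL-21isoTg mice in red, mouse 1 as a circle, mouse 2 as a square and mouse 3 as a triangle, and the mean ± SD in black. The genotypes do not overlap for Il21, Gm12534 and Il2rg, and overlap for the other 7 genes.

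Of the 10 genes, 9 had a positive and 1 a negative log2 fold change, with a median of 0.75 beside -0.019 over all genes tested. In edgeR's quasi-likelihood test 0 of the 10 had an adjusted p under 0.05, against 0% of all genes tested. At an unadjusted p under 0.05 there were 3 of 10, Il21, Gm12534 and Il2rg, all higher, where 3.19% of all genes were called higher and 2.63% lower. Of these 3, Il21 and Gm12534 are not independent, since all 469 bp of Gm12534 lie within the 5259 bp of Il21 exons. DESeq2's Wald test called 0 of the 10 after adjustment (0.419% of all genes higher and 0.0524% lower), and 4 of the 10 before it, which included Cd3e (3.98% of all genes higher and 2.95% lower). On the TMM scale the genotypes did not overlap in 3 of the 10, the same 3 genes, against 12.1% of all genes tested, 5.54% higher and 6.54% lower.

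**Figure D4:**
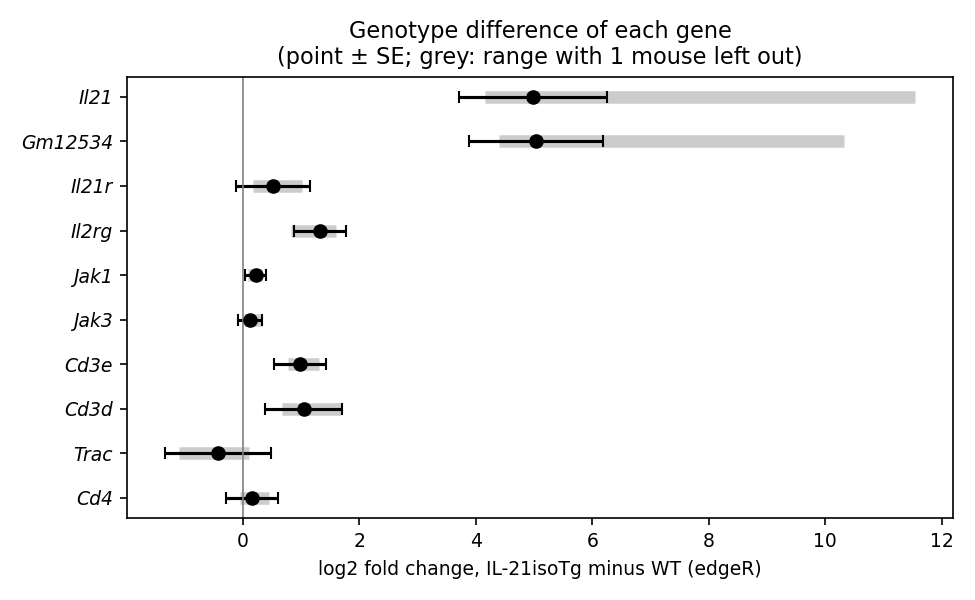
Log2 fold change (IL-21isoTg minus WT, edgeR) of each of the 10 genes, with its standard error (black) and the range obtained when each mouse was left out in turn (grey). Il21 and Gm12534 lie near 5, where the upper end of their grey bars is the fit without WT mouse 3 and depends on the prior count because the remaining WT mice are at 0, and the grey bars of Trac and Cd4 cross 0.

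Levels of different genes were compared per kb of merged exon, with stretches shared with other genes included in the length. In WT MECs the order by mean was Jak1 at 24.0 CPM per kb, Jak3 at 5.71, Il2rg at 0.787, Trac at 0.764, Cd4 at 0.480, Gm12534 at 0.480, Cd3e at 0.427, Il21r at 0.351, Cd3d at 0.200 and Il21 at 0.106. Only the first 2 stood clear of their neighbours in every mouse, since the per-mouse ranges from Il2rg (0.624 to 1.04) down to Cd3d (0.0794 to 0.347) each overlapped that of the next gene. In IL-21isoTg MECs the level of Il21 was 3.38 ± 2.55 CPM per kb (SD, n = 3), above Cd3e at 0.850 ± 0.357 and Il21r at 0.510 ± 0.261. The lowest Il21 value of 1.53 CPM per kb was above the highest Cd3e value of 1.06. The merged length of Il21, 5259 bp, includes the retained intron and the long exon 5. Il21-202, whose end the isoform primer matches, lacks all but the first bases of exon 5, and a level per kb of that transcript alone would be higher.

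Since the transgene is described as expressed in T cells, Il21 was set against the T-cell markers of the same library, which needs no scaling between mice. The 4 markers summed to 106, 84 and 121 counts in the WT mice and 163, 161 and 85 in IL-21isoTg mice. For each T-cell marker count there were 4.88, 1.34 and 1.54 Il21 counts in the IL-21isoTg mice, 0.306 in WT mouse 3 and 0 in the other WT mice. On the log2 scale with a pseudocount of 0.5, the difference was 6.72 (exact permutation test, two-sided, p = 0.1). The pseudocount sets the value of the WT mice at 0, and the difference was 8.68 without WT mouse 3. With 3 mice against 3, 0.1 is the smallest p this test can give. The groups did not overlap, so the Il21 difference was present relative to these markers as well as relative to the whole library.

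The summed level of the 4 T-cell markers was 4.78, 4.04 and 5.44 CPM in the WT mice and 6.78, 5.99 and 7.93 CPM in the IL-21isoTg mice. The groups did not overlap, with a log2 difference of 0.54 (exact permutation test, two-sided, p = 0.1). This held for the 4 genes and this scaling. With the plain library total the difference was 0.25 (exact p = 0.2), and over a longer list of 18 T-cell genes it was -0.027 (exact p = 0.9), so no difference in T-cell content was established. On that list 7 of the 15 genes tested had a positive and 8 a negative log2 fold change, with a median of -0.22, and 0 had an adjusted p under 0.05 in edgeR's test or in DESeq2's. Before adjustment edgeR's test also gave 0 genes under 0.05. The extremes were Cd6, a T-cell surface receptor, at 1.05 (standard error 0.63) and Cd28, the main co-stimulatory receptor, at -1.38 (standard error 0.78). The cytotoxic co-receptor genes Cd8a and Cd8b1 had 1 to 11 counts per mouse and were not tested.

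**Figure D5:**
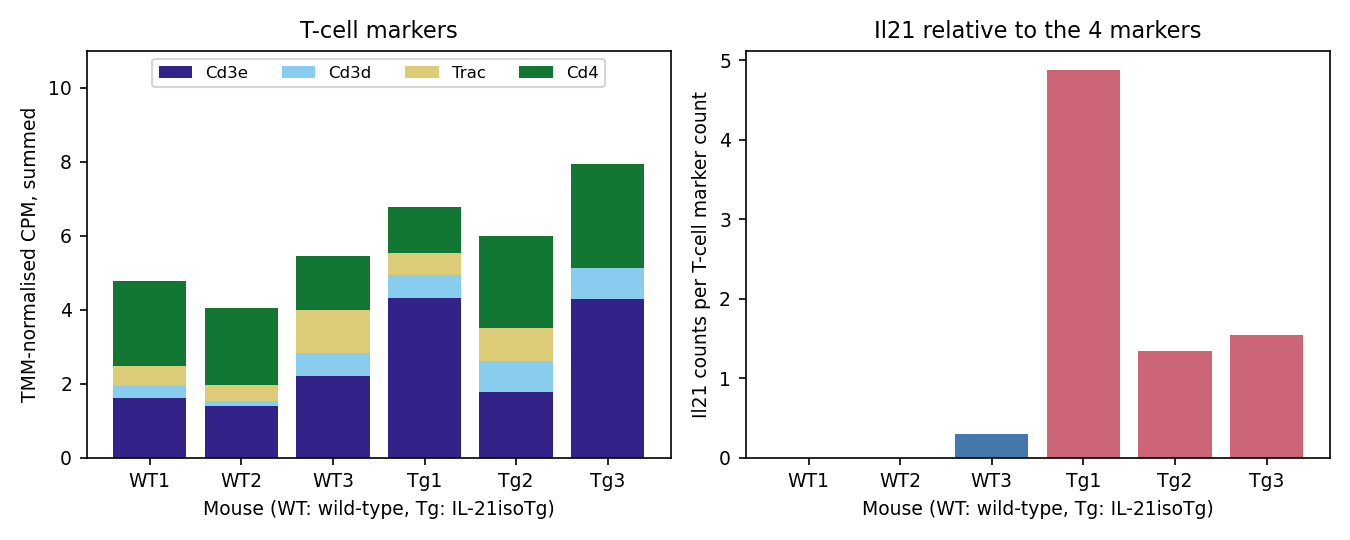
Left, summed TMM-normalised CPM of Cd3e, Cd3d, Trac and Cd4 in each mouse, stacked by gene; right, Il21 counts per summed count of the same 4 genes (bars start at 0; WT in blue, IL-21isoTg in red). The marker sum is 4.04 to 5.44 CPM in WT mice and 5.99 to 7.93 CPM in IL-21isoTg mice, while the Il21 ratio is 0 to 0.306 in WT mice and 1.34 to 4.88 in IL-21isoTg mice.

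Genes typical of the T cells that make IL-21, or of regulatory T cells, were listed next. Of 14 such genes 8 were tested, with 5 positive and 3 negative log2 fold changes and a median of 0.073, and 0 passed adjustment. Ctla4, an inhibitory receptor of activated and regulatory T cells, was at 1.10 (standard error 0.60, adjusted p = 0.809 in edgeR's test), from 6 to 13 counts in the WT mice and 14 to 24 in the IL-21isoTg mice. On the CPM scale its groups overlapped, with 0.585 CPM in WT mouse 3 and 0.521 CPM in IL-21isoTg mouse 2. Bcl6, the regulator of follicular helper T cells, was at -0.52 (standard error 0.26), with means of 55.7 CPM in WT mice and 38.9 CPM in IL-21isoTg mice. Batf, a transcription factor of activated T and B cells, was singled out after its values were seen. It was the 1 gene of the 8 whose groups did not overlap, beside 12.1% of all genes tested. Its log2 fold change was 0.55 with a standard error of 0.23 (unadjusted p = 0.0446 and adjusted p = 0.809 in edgeR's test). On average Batf had 7.66 CPM in WT and 11.2 CPM in IL-21isoTg mice, beside 1.74 and 3.47 CPM for Cd3e. Which cells the Bcl6 and Batf RNA came from was not tested. Il17a was at 0 in all 6 mice.

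The rest of the common gamma-chain system had differences in both directions, none past adjustment. Of 6 further ligand genes 3 were tested, 2 with a positive and 1 with a negative log2 fold change, from -0.29 (standard error 0.52) for Il7, a survival factor of lymphocytes, to 1.10 (standard error 0.71) for Tslp. TSLP is an epithelial cytokine listed for its use of the IL-7 receptor alpha chain, and its receptor does not contain the common gamma chain. Il15, a survival factor of NK and memory T cells, named here because of its values, had 2.62, 3.70 and 3.69 CPM in WT mice and 4.07, 4.69 and 4.20 CPM in the transgenic mice. These did not overlap, the 1 gene of the 3 tested, beside 12.1% of all genes tested. The log2 fold change of Il15 was 0.37 with a standard error of 0.30 (adjusted p = 0.841 in edgeR's test). The sum of the 6 ligands, Tslp included, did not overlap either, by a narrow margin, at 6.16 to 7.50 CPM against 7.52 to 8.77 CPM. This rested on Tslp, which held 2.52 of the 8.77 CPM in IL-21isoTg mouse 3 and 0.631 of the 7.17 CPM in WT mouse 1. Without Tslp the groups overlap. Il2, Il4 and Il9 had 0 to 12 counts per mouse and were not tested. Of 7 partner chains 6 were tested, 3 in each direction, with a median of -0.093. The list includes Crlf2, the other chain of the TSLP receptor. Il4ra, the chain that pairs with the common gamma chain to bind IL-4, was the highest of them. Its counts were 1482, 946 and 1244 in the WT mice and 2216, 2683 and 769 in IL-21isoTg mice, or 56.1 CPM against 87.9 CPM on average. Il4ra was the 1 gene of the 6 whose groups did not overlap, beside the same 12.1%. Its log2 fold change was 0.65 with a standard error of 0.20 (unadjusted p = 0.0119, adjusted p = 0.809 in edgeR's test). Il2rb, the chain shared by the IL-2 and IL-15 receptors, was the lowest at -0.82 (standard error 0.56).

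Downstream of the receptor, 9 of 9 other JAK and STAT genes were tested, 5 with a positive and 4 with a negative log2 fold change. They ranged from -0.59 (standard error 0.65) for Stat4 to 0.41 (standard error 0.21) for the kinase gene Tyk2. Stat3, the main factor of IL-21 signalling, was at 0.13 (standard error 0.17). Of 16 feedback inhibitors, all tested, 8 lay on each side, from -0.65 (standard error 0.46) for Socs1 to 0.99 (standard error 0.49) for Socs2. Cish, a STAT5-induced inhibitor named after its values were seen, was at 0.66 (standard error 0.26, unadjusted p = 0.0375 and adjusted p = 0.809 in edgeR's test). The other inhibitors had an unadjusted p above 0.05 in that test, in which 3.19% of all genes were under 0.05 and higher and 2.63% lower. The genotypes did not overlap in 2 of the 16, Socs4 and Socs6, both lower in the IL-21isoTg mice, beside 12.1% of all genes tested. Their log2 fold changes were -0.32 (standard error 0.15) and -0.31 (standard error 0.17), with an adjusted p of 0.809 for each in edgeR's test.

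Genes that IL-21 is known to induce in lymphocytes were mostly on the positive side. Of 14 genes, Il21r included, 10 were tested, 8 with a positive and 2 with a negative log2 fold change, and the median was 0.31. Over all genes tested, 8216 of 17165 were positive. Among the positive genes, Socs3 and Mcl1 had means of 480 and 320 CPM in the WT mice, beside 1.74 CPM for Cd3e. Which cells the RNA of the listed genes came from was not tested. The highest was Prdm1, the regulator of plasma cells and effector T cells, at 0.60 (standard error 0.23, unadjusted p = 0.0312, adjusted p = 0.809 in edgeR's test). The groups did not overlap in 3 of the 10, Prdm1 among them, beside 12.1% of all genes tested. The lowest was Ighg1, an antibody heavy chain, at -1.16 (standard error 0.80). None of the 10 passed adjustment in edgeR's test or in DESeq2's, and before adjustment 2 of them, Prdm1 and Batf, were under 0.05 in edgeR's test, both higher, beside 3.19% of all genes. The effector genes Gzmb, Prf1 and Il10 had 0 to 18 counts per mouse and were not tested.

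The summed markers of other leukocytes overlapped between the genotypes. Of 8 pan-leukocyte genes 6 were tested, and their summed level was 7.64 to 23.8 CPM in the WT mice and 12.9 to 23.8 CPM in the IL-21isoTg mice. B-cell markers, of which 7 of 9 were tested, summed to 3.41 to 13.3 CPM in the WT mice and 6.34 to 7.37 CPM in the IL-21isoTg mice, with Ms4a1 at 0 in IL-21isoTg mouse 3. Of 12 myeloid markers 8 were tested, and their sum was 176 to 242 CPM in the WT mice and 158 to 381 CPM in the IL-21isoTg mice. Most of that sum was Cd14, with 141 to 213 CPM in the WT mice and 125 to 350 CPM in the IL-21isoTg mice. Other genes of the list were near 0, with 0 to 3 counts per mouse for Itgam, 0 to 6 for Fcgr1 and 0 to 26 for Adgre1. Which cells the Cd14 RNA came from was not tested. Of the 8 myeloid genes tested, 3 had a positive and 5 a negative log2 fold change, from -0.85 (standard error 0.60) for Cd163 to 0.71 (standard error 0.97) for Mrc1. Mertk, a phagocytic receptor of macrophages, was the 1 gene of the 8 whose groups did not overlap, beside 12.1% of all genes tested. It had 6.72 to 9.99 CPM in the WT mice and 11.3 to 15.6 CPM in the IL-21isoTg mice (log2 fold change 0.54, standard error 0.25, adjusted p = 0.809 in edgeR's test). NK-cell markers were at or near 0, with a sum of at most 0.856 CPM, 0 of 8 genes tested and Ncr1 at 0 in every mouse. The part of these cells in the Il21r, Il2rg and Jak3 levels was not tested.

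WT mouse 3, the WT mouse with Il21 counts, had the highest CPM of the WT mice for Il21, Gm12534, Il21r, Jak3, Cd3e, Cd3d and Trac. It had the lowest for Cd4, at 1.44 CPM beside 2.30 and 2.07 CPM, and WT mouse 1 had the highest for Il2rg and Jak1. The pan-leukocyte sum of WT mouse 3, 23.8 CPM, was the highest of the WT mice, beside 22.5 and 7.64 CPM. Ptprc had 209 counts in this mouse, the highest of all 6 mice.

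Outside the 10 genes, those whose level was most like that of Il21 over the 6 mice, by Pearson's correlation of log2 CPM, are given as a description, since genotype and WT mouse 3 shape all of them. They were Got1, an aspartate aminotransferase (r = 0.992), Fabp3, a fatty acid-binding protein (0.990), Cmah (0.989), the mitochondrial carrier gene Ucp3 (0.987) and Eln, which encodes elastin (0.984). Fabp3 had 11, 7 and 147 counts in the WT mice and 4151, 1986 and 618 in IL-21isoTg mice, and as with Il21, WT mouse 3 was the highest WT mouse. Among the 10 genes, r with Il21 was 0.996 for Gm12534, 0.845 for Cd3e, 0.819 for Il2rg, 0.817 for Cd3d, 0.536 for Jak3, 0.414 for Jak1, 0.312 for Il21r, -0.17 for Trac and -0.20 for Cd4. The T-cell genes thus lay at both ends of this range.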

How the data were processed

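RNA-seq counts came from MECs of 3 WT and 3 IL-21isoTg mice, and groups were taken from the sample titles. The authors deposited raw counts per gene, from poly(A)-selected directional libraries with 150-bp paired-end reads. The submitters' processing notes name FastQC 0.11.7, Trimmomatic 0.38, HISAT2 2.1.0, SAMtools 1.9, featureCounts 1.6.3, DESeq2 1.24.0 and the build mm10. A table of normalised values and the authors' own comparison (fold changes and p-values) were not used, apart from gene start and end positions deposited in the latter. These equal GENCODE M21, the source of the printed sequences, for 31020 of 31286 identifiers and for all 10 genes studied.

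Genes were filtered with filterByExpr (minimum count 10, minimum total 15), scaled by TMM and compared with edgeR 4.0.16 (legacy quasi-likelihood test, robust, genotype as the only term) in R 4.3.3. Standard errors are the log2 fold change over the root of F. Overlap of groups in the level of a gene was judged on TMM-normalised CPM and depends on this scaling. P-values were adjusted over 17165 genes. Exact two-sided permutation tests over mice served for single values. The tests were tried on simulated data. DESeq2 1.42.0 and limma 3.58.1 were alternatives, with other scalings, no filter, the replicate block and each mouse left out. Python 3.11.15 and matplotlib 3.10.9 drew the plots. Named genes were the 10 genes, the extremes of each list, the depletion targets, overlapping genes and the 5 most like Il21. Batf, Stat3, Cish, Socs3, Socs4, Socs6, Mcl1, Il15, Cd14, Mertk and the other genes named for low counts were chosen after their values were seen. The check of opposite-strand genes was added after seeing the data. The genes and lists were chosen with earlier results of these data known. The labels do not say more of the replicates than that they are numbered mice.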

Additional observations from a re-analysis of the deposited data

How the results depend on the processing

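Over the 10 genes, 130 alternative fits gave 0 adjusted p-values under 0.05, and 4 changed direction: Trac to 0.10 without WT mouse 3 and 0.051 without IL-21isoTg mouse 3, and Cd4 to -0.013 and -0.045 without the same mice. With 1 mouse left out Trac ranged from -1.10 to 0.10 and Cd4 from -0.045 to 0.45. Over all genes tested, edgeR called 0 in each direction after adjustment, which became 72 higher and 9 lower in DESeq2 and 14 and 0 with no filter on low counts. With each mouse left out in turn there were 0 to 6 higher, the 6 without WT mouse 3, and 0 lower. The log2 fold change of Il21 was 4.16 to 11.5 with 1 mouse left out, the highest without WT mouse 3, where the fit depends on the prior count, and 7.28 in limma-voom; the direction held in all 13 alternatives. The T-cell marker difference of 0.54 was 0.43 to 0.64 with 1 mouse left out and -0.027 with the longer marker list. Il21 per T-cell marker was 5.66 to 8.68 with 1 mouse left out and 6.05 with a pseudocount of 1. The median Gm12534 to Il21 ratio was 40.5% to 47.3% with 1 mouse left out, an alternative chosen after seeing the data. The labels do not say whether mice of the same replicate number were paired. Correlations of same-numbered deviations were -0.26, 0.096 and -0.056, and those of other pairs ranged from -0.27 to 0.26. With 3 mice a group these values cannot settle it. With the replicate block, 0 genes were called, as without it, and Il21 was at 5.78 (adjusted p = 0.992 in edgeR's test). With 3 mice a group and T-cell markers at 0 to 104 counts, differences in these markers were not well resolved.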
